A study of Homo sapiens with 6 samples.

Results

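Replication licensing is carried out by a small set of genes, and 10 of them were followed here in Rh30 rhabdomyosarcoma cells treated with YK-4-279: ORC1, CDC6, CDT1, the subunit genes MCM2, MCM3, MCM4, MCM5, MCM6 and MCM7, and MCM10. They were chosen by name and role, with earlier results of these data known, and are the rows of the count matrix with these symbols, 10 of 35268 named genes. Rh30 is an established line of fusion-positive rhabdomyosarcoma (FP-RMS), a childhood soft tissue cancer driven by the PAX3-FOXO1 fusion protein, so all values describe 1 cell line. The 6 libraries were made from polyA RNA: 3 from cells exposed for 24 hours to 1 µM YK-4-279 dissolved in DMSO and 3 from cells exposed to DMSO alone for the same time. YK-4-279 is a small molecule that interferes with protein interactions of ETS family transcription factors, and the comparison asks how the drug altered the transcriptome of FP-RMS cells. The labels number the replicates but do not say that they were separate cultures, so p-values measure only the spread between these libraries.

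Before a cell copies its DNA, each origin of replication must be licensed. The origin recognition complex, of which ORC1 is the largest subunit, binds DNA and, together with CDC6 and CDT1, loads the ring-shaped MCM2-7 helicase, which stays inactive until S phase. Cyclin-dependent and CDC7 kinases then convert the loaded ring into the active CMG helicase by adding CDC45 and the GINS complex, while MCM10 promotes its activation and geminin holds CDT1 in check so that no origin is licensed again in the same cycle. Many of these genes are textbook targets of E2F transcription factors and peak in mRNA around the start of S phase.

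The libraries held 16724650 to 24677433 reads on named genes, and every licensing gene was well covered, from 952 reads (ORC1) to 13646 reads (MCM7) per library. The cells carried the markers of their label. The summed normalized count of MYOD1, MYOG, DES, CHRNA1 and CDH15 was 70572 to 83564 in the DMSO libraries and 78067 to 81648 in the YK-4-279 libraries. In contrast, 11 markers of blood, endothelial, epithelial, satellite and liver cells summed to 129 to 136 and to 122 to 176, with CD68 and KRT5 at 0 in all 6 libraries. DMSO replicate 1 was set off from the rest. It was the shallowest library and had the highest share of mitochondrial reads (6.05%, against 4.74% to 5.03% in the others) and the lowest mean correlation with the rest (0.989, against at least 0.992).

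All 10 licensing genes had a lower mean after YK-4-279, by between 6.67% (MCM5) and 19.5% (CDC6). CDC6, MCM10, MCM6, MCM4 and MCM3 fell past the threshold used here, an adjusted p-value under 0.05 in limma's moderated test over all 13930 genes with a mean normalized count of at least 10. The other 5, ORC1, CDT1, MCM7, MCM2 and MCM5, did not pass, and no licensing gene rose. Over all genes tested, 3.41% passed in either direction and 2.15% fell, against 5 of 10 here. Their median log2 fold change (YK-4-279 relative to DMSO, on the log2(normalized count + 1) scale) was -0.23, with a range of -0.31 to -0.10, beside a median of -0.01 over all genes tested. In 8 of 10 genes every YK-4-279 library lay below every DMSO library, a pattern seen in 15.1% of all genes tested. Reads on the 10 genes together made up 0.200%, 0.210% and 0.212% of the DMSO libraries, but 0.187%, 0.185% and 0.184% of the YK-4-279 libraries. In bulk RNA, fewer cells in the phases that express these genes and less of their RNA per cell cannot be told apart.

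**Figure D1:**
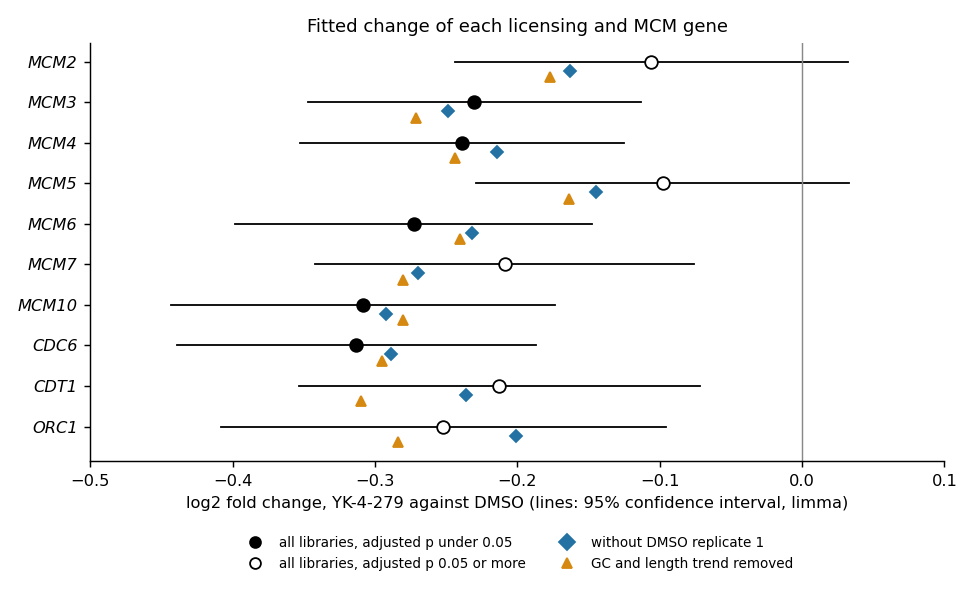
Log2 fold change (YK-4-279 relative to DMSO) of each licensing gene on the x axis, with its 95% interval from limma, n = 3 libraries per group. Filled circles passed the test, diamonds leave out DMSO replicate 1 and triangles have the GC and length trend removed. All 10 estimates lie below 0, from -0.31 to -0.10, and only the intervals of MCM2 and MCM5 reach 0.

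The number of genes that passed depended on which library was present, while all 10 fold changes stayed below 0 with each library left out in turn. Without DMSO replicate 1, all 10 licensing genes passed, as 8.46% of all genes tested then fell. Without DMSO replicate 2, MCM4, MCM6, MCM10 and CDC6 passed (2.96% of all genes), and without DMSO replicate 3 only CDC6 passed (1.02%). With YK-4-279 replicate 1, 2 or 3 left out, none passed, and only 0.0287%, 0.0503% and 0.129% of all genes then fell, and 8 of 10 licensing genes had an unadjusted p-value under 0.05 in each case, beside 6.93%, 8.31% and 7.67% of all genes that were lower at that unadjusted threshold. None passed either when limma was run without its trend of variance on level, where 3 of all genes tested fell. At an unadjusted p-value under 0.05, 8 of the 10 were again lower there, beside 8.5% of all genes. With all libraries and the trend these were 8 of 10 and 11%.

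The promoters of these genes are shown as a description. The genes were chosen by role and many are textbook targets of E2F, so E2F words in them are not an independent result. RefSeq promoter windows (GRCh38.p14, 250 bases before to 50 after the start) were matched for 8 of the 10 genes, not for MCM4 or MCM5. An E2F word (TTTCCCGC, TTTCGCGC, TTTGCCGC or TTTGGCGC, on either strand) stood in 6 of these 8, namely MCM2, MCM3, MCM6, MCM7, CDC6 and CDT1, and in 3.33% of all 27305 promoters and 5.23% of those of genes tested. In the 4 stretches that follow, from 110 bases before the start to 20 from it, capitals mark E2F words, CCAAT words and CHR words (TTTGAA or TTCGAA) on either strand, and neighbouring words can overlap.
MCM2, chr3:127598301-127598430, plus strand: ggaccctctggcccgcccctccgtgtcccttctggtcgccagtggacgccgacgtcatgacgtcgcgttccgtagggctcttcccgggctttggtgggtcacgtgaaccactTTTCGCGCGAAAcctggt
MCM6, chr2:135876424-135876553, minus strand: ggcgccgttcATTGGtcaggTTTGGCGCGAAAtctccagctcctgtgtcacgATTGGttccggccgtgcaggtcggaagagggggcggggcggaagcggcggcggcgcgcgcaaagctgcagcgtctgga
CDC6, chr17:40287769-40287898, plus strand: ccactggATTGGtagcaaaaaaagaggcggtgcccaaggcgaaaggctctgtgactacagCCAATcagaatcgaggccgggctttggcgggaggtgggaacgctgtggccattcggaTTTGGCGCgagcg
CDT1, chr16:88803679-88803808, plus strand: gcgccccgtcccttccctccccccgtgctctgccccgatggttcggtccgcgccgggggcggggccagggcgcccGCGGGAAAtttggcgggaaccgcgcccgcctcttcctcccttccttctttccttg

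Counted from the start, the first base of an E2F word lay at positions 3 and 7 in MCM2 and at position 8 in CDC6, 35 bases upstream in CDT1, and 86, 90, 148 and 152 bases upstream in MCM6, where words on opposite strands overlap. A CCAAT word, the core of the NF-Y site, stood in 6 of 8 promoters (37.1% of those of genes tested), and so did an SP1 word, GGGCGG (69.3%). A CHR word stood in 1 of 8, MCM6 (11.2%), and an ETS word, CCGGAAGT, in 0 of 8 (8.66%), which says only that these letters are not in these windows. Genes that fell were found with and without one of the listed E2F words. Of the 6 with such a word, MCM3, MCM6 and CDC6 fell and MCM2, MCM7 and CDT1 did not pass. Of the 2 without one, MCM10 fell and ORC1 did not pass. Only these exact letters were searched, so other forms of an E2F site may stand in those 2 promoters.

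ORC1, the origin recognition subunit whose level changes through the cell cycle, lies on chromosome 1 (hg38, 52372829 to 52404423, minus strand). Its normalized counts were 1281, 1138 and 1167 in the DMSO libraries and 947, 1034 and 1029 in the YK-4-279 libraries. The groups did not overlap, but both were wide, and the log2 fold change of -0.25 (SE 0.07) had an adjusted p-value of 0.0766 in limma.

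CDC6 (chromosome 17, 40287879 to 40304657, plus strand) is the ATPase that joins ORC and is needed to load the MCM ring. It had the largest decrease of the 10 genes in the analysis reported, just ahead of MCM10. The order depended on the setting. MCM10 had the larger decrease without DMSO replicate 2 (-0.341 against -0.318), and CDT1 with the GC and length trend removed (-0.31 against -0.295). The normalized counts of CDC6 were 2374, 2281 and 2236 with DMSO against 1862, 1826 and 1857 with YK-4-279. Every treated library lay well below every control library, and the treated libraries had a CV of 1.07%. The mean fell by 19.5%, from 2297 ± 70.5 to 1848 ± 19.7 (SD, n = 3), a log2 fold change of -0.31 (SE 0.06, limma adjusted p = 0.0122).

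CDT1, which brings the MCM ring to ORC and CDC6 (chromosome 16, 88803789 to 88809258, plus strand), had normalized counts of 1325, 1436 and 1346 with DMSO and of 1165, 1159 and 1218 with YK-4-279. The groups did not overlap, yet the gap between them was narrow, and the log2 fold change of -0.21 (SE 0.07) had an adjusted p-value of 0.0931 in limma. Geminin (GMNN), the inhibitor that binds CDT1 protein, had counts of 830, 804 and 845 with DMSO and 711, 736 and 702 with YK-4-279. It too had lower values in every treated library, with a log2 fold change of -0.21 (SE 0.07, limma adjusted p = 0.129). As levels per length, the ratio of GMNN to CDT1 was 1.32, 1.18 and 1.32 with DMSO and 1.29, 1.34 and 1.22 with YK-4-279. The ratios overlapped between the groups, at means of 1.28 ± 0.081 and 1.28 ± 0.061 (SD, n = 3).

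The 6 subunits of the MCM2-7 ring are paralogous ATPases that assemble in equal number. MCM3, MCM4 and MCM6 fell and MCM2, MCM5 and MCM7 did not pass. MCM6 (chromosome 2, 135839626 to 135876443, minus strand) had normalized counts of 4859, 4388 and 4548 with DMSO and 3715, 3871 and 3825 with YK-4-279. MCM4 (chromosome 8, 47960185 to 47978160, plus strand) had 8217, 7746 and 7861 against 6638, 6832 and 6714. MCM3 (chromosome 6, 52264014 to 52284881, minus strand) had 4282, 4400 and 4500 against 3691, 3818 and 3725. In these 3 genes all treated libraries lay below all control libraries. MCM6 fell by 17.3% (log2 fold change -0.27, SE 0.06, limma adjusted p = 0.0232). MCM4 fell by 15.3% (-0.24, SE 0.05, limma adjusted p = 0.0279) and MCM3 by 14.8% (-0.23, SE 0.05, limma adjusted p = 0.0363).

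MCM7 (chromosome 7, 100092233 to 100101940, minus strand) had the highest values of the 10 genes, with normalized counts of 10067, 11458 and 11394 with DMSO and 9644, 9658 and 9139 with YK-4-279. The groups did not overlap, but DMSO replicate 1 lay closer to the treated libraries than to the other controls, and the log2 fold change of -0.21 (SE 0.06) had an adjusted p-value of 0.0837 in limma. MCM2 (chromosome 3, 127598410 to 127622436, plus strand) had 4564, 5144 and 5132 against 4809, 4592 and 4379. MCM5 (chromosome 22, 35400134 to 35425431, plus strand) had 3476, 3930 and 3737 against 3434, 3548 and 3418. In both, DMSO replicate 1 lay within the range of the treated libraries while the other controls lay above it. Their log2 fold changes were -0.11 (95% interval -0.24 to 0.03, limma adjusted p = 0.401) for MCM2 and -0.10 (-0.23 to 0.03, limma adjusted p = 0.413) for MCM5.

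MCM10, which is not part of the ring but helps to activate the assembled helicase (chromosome 10, 13161558 to 13211110, plus strand), had normalized counts of 1706, 1593 and 1704 with DMSO and 1368, 1347 and 1322 with YK-4-279. The groups were far apart for their spread, and the mean fell by 19.3%, from 1668 ± 64.8 to 1346 ± 23.4 (SD, n = 3; log2 fold change -0.31, SE 0.06, limma adjusted p = 0.0184).

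**Figure D2:**
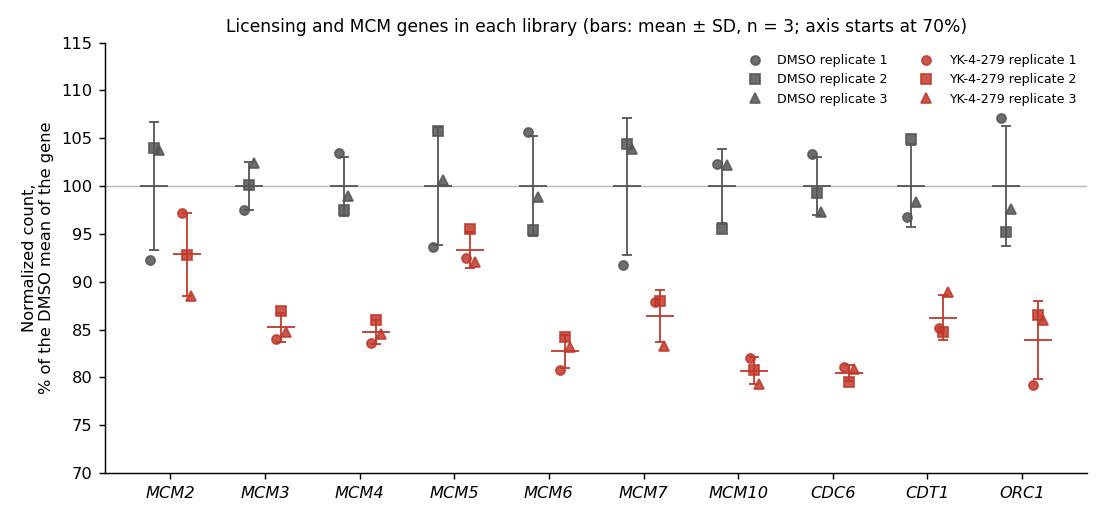
Normalized count of each licensing gene (x axis) as a percentage of its own DMSO mean (y axis, from 70%) in the 3 DMSO libraries (grey) and 3 YK-4-279 libraries (red), with the mean and SD of each group. The groups overlap in MCM2 and MCM5 and in no other gene.

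DMSO replicate 1 departed from the other DMSO libraries in opposite directions for genes of higher and lower transcript GC content. In DMSO replicate 1, MCM7, MCM2, MCM5, CDT1 and MCM3, with a transcript GC content of 51.7% to 64.3%, lay below both other DMSO libraries, by 0.06 (MCM3) to 0.18 (MCM7) on the log2 scale relative to their mean. ORC1, MCM6, MCM4, CDC6 and MCM10, with a GC content of 43.2% to 50.7%, lay above both, by 0.05 (MCM10) to 0.15 (ORC1). The 2 genes whose groups overlapped and the one with the highest counts, MCM7, were the 3 with the largest deficit in this library. Between-library CVs in the DMSO group ran from 2.49% (MCM3) to 7.16% (MCM7), whereas the largest counting error of any licensing gene was 3.24% (ORC1), and in the YK-4-279 group CVs ran from 1.07% to 4.88%. After correction of every library for smooth trends with GC content and length of the transcripts, all 10 genes passed the test, with log2 fold changes of -0.31 to -0.16, as 10.7% of all genes then fell. Without DMSO replicate 1, MCM2 had a log2 fold change of -0.16 and MCM5 of -0.14. In the other direction, MCM5 had -0.06 without DMSO replicate 2 and -0.03 with quantile scaling, and MCM2 had -0.07 without YK-4-279 replicate 3 and -0.06 with quantile scaling. The sign of the difference split by GC content, but its size did not rank by it in every gene. CDT1 had the highest GC content and a difference of -0.07, while MCM2, at 57.4%, had -0.17. Transcript lengths also differed between the sets, with 2467 to 3458 bases in the genes that lay below and 3121 to 4564 in those that lay above. The part of GC content or length in these differences was not tested.

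**Figure D3:**
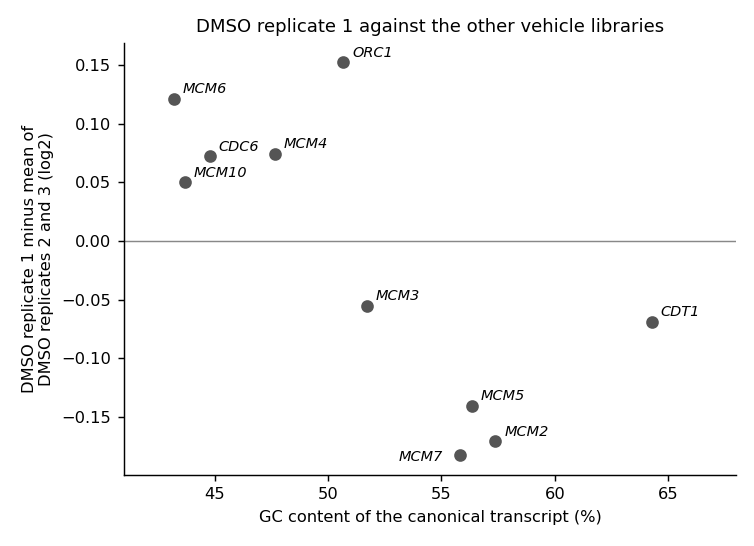
Log2 difference of DMSO replicate 1 from the mean of the other 2 DMSO libraries (y axis) against transcript GC content in percent (x axis), with 1 point per licensing gene. The 5 genes at or above 51.7% GC lie below 0 and the 5 at or below 50.7% lie above 0.

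Levels can be compared between genes only per length of transcript. As RPKM, the reads scaled by transcript length and library total, MCM7 stood highest in the DMSO libraries at 214 ± 17.6 (SD, n = 3), followed by MCM4 at 93.9 ± 2.03. MCM2 (69.2 ± 5.39) and MCM3 (68.8 ± 2.51) did not differ beyond their spread, while MCM6 (58.8 ± 2.54) and then MCM5 (51.6 ± 3.61) lay below them with no overlap between libraries. With YK-4-279, the libraries of MCM6 (49.7 to 51.2) and MCM5 (49.7 to 50.4) overlapped. The loaders and MCM10 stood lower than any ring gene: CDT1 at 24.7 ± 1.2 and CDC6 at 24.2 ± 0.453 were within their spread, as were ORC1 at 18.4 ± 0.971 and MCM10 at 17.6 ± 0.673. The summed level of MCM2 to MCM7 was 528, 568 and 573 with DMSO and 509, 502 and 496 with YK-4-279, so the groups did not overlap. Within that sum, MCM2 took 12.4% ± 0.427 with DMSO and 13.3% ± 0.478 with YK-4-279, and MCM5 took 9.28% ± 0.321 and 9.95% ± 0.128. These 2 of the 6 shares had no overlap between groups. Over the 13930 genes tested, the counts of 2098 lay below without overlap and those of 1523 above. DMSO replicate 1 had the lowest share of each, at 11.9% for MCM2 and 9.03% for MCM5. An exact permutation test of 3 against 3 libraries cannot go below p = 0.1. MCM7 kept the largest share in both groups, at 38.4% ± 1.5 and 38.1% ± 0.508.

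**Figure D4:**
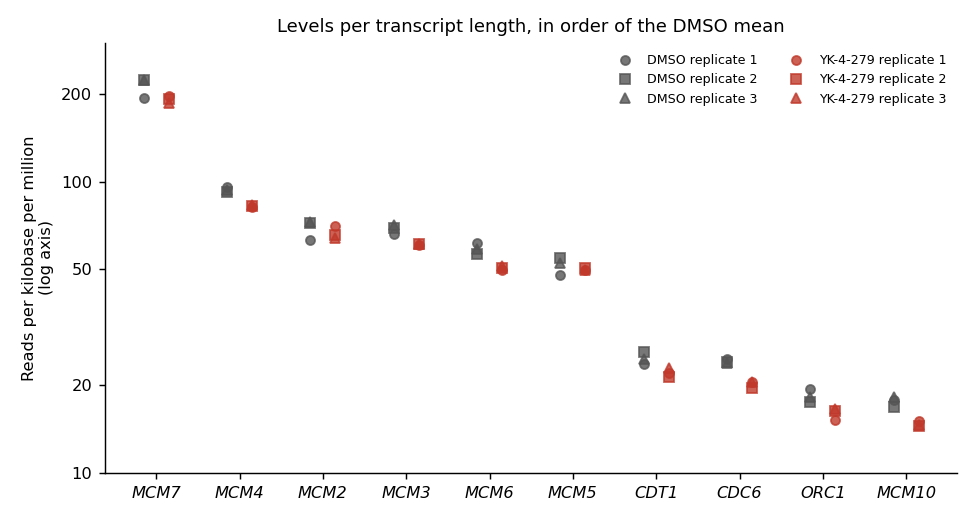
Level of each licensing gene in RPKM, reads scaled by transcript length and library total (y axis, log scale), with points for the 3 DMSO and 3 YK-4-279 libraries. MCM7 stands highest at 214 and 192 (group means), and MCM10 lowest at 17.6 and 14.8.

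Several licensing genes share their surroundings with other genes. MCM4 and PRKDC, the catalytic subunit of DNA-dependent protein kinase, start 805 bases apart on opposite strands. PRKDC had a mean of 19587 ± 1336 with DMSO and 16787 ± 294 with YK-4-279 (SD, n = 3), with no overlap of groups and a log2 fold change of -0.22 (limma adjusted p = 0.0603), beside -0.24 for MCM4. ORC1 and the splicing factor gene PRPF38A start 179 bases apart, and PRPF38A had a log2 fold change of -0.12 (limma adjusted p = 0.355). MCM7 overlaps AP4M1, an adaptor complex subunit gene on the opposite strand, whose start lies 246 bases from its own. AP4M1 had about 216 normalized counts in both groups, a log2 fold change of 0.01 (limma adjusted p = 0.987). The library kit was directional, but the strand setting of the counting is not given in the sources used here, so reads from the overlap cannot be assigned to either gene with certainty. Of the microRNA genes within MCM7, MIR25 had 10 to 30 reads per library, MIR93 1 to 3 and MIR106B 0 to 2, too few for a comparison in a polyA library.

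The rest of the replication machinery was described by lists of genes around licensing. Of the other ORC subunits, ORC2 to ORC6, 0 of 5 passed limma's test, beside 2.15% of all genes that fell, and none passed with edgeR or DESeq2 (median log2 fold change -0.18). At an unadjusted p-value under 0.05, 2 of 5 were lower, beside 11% of all genes. The count of 0 became 1 without DMSO replicate 1 (median -0.12, 8.46% of all genes fell) and 1 without DMSO replicate 2 (2.96%). It became 2 with the GC and length trend removed (10.7%). All 5 estimates were below 0, and ORC6, with the highest mean normalized count, went from 1851 ± 97.4 to 1618 ± 50.4 (-0.19, limma adjusted p = 0.122). ORC3 had no overlap between groups either (-0.28, limma adjusted p = 0.103, but -0.18 without DMSO replicate 1), while the groups of ORC2, ORC4 and ORC5 overlapped. Of the other MCM family and MCM-binding genes, 1 of 4 tested fell, beside 2.15% of all genes (median -0.26). This was MCM8, which forms a separate helicase with MCM9 in recombination (-0.29, limma adjusted p = 0.0358), while MCM9 itself had -0.31 at an adjusted p-value of 0.0624 and MCMBP, which binds MCM subunits, -0.22 at 0.0805. MCM3AP had -0.02 with overlapping groups (limma adjusted p = 0.895). The count of 1 became 3 without DMSO replicate 1 (8.46% of all genes fell) and 3 with the GC and length trend removed (10.7%). It became 0 without DMSO replicate 3 (1.02%) and without YK-4-279 replicate 1, 2 or 3 (0.0287%, 0.0503% and 0.129%). Without DMSO replicate 2 the count stayed at 1 (2.96%), although MCM8 itself did not pass there (limma adjusted p = 0.0514).

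The genes that turn a licensed origin into a moving fork were described next. Of 17 genes of the CMG helicase and origin firing, 8 fell and 0 rose, beside 2.15% of all genes that fell (median -0.29). In 13 of 17 every treated library lay below every control library, as in 15.1% of all genes. DONSON, which helps to bring GINS to the MCM ring, fell the most, from 1268, 1160 and 1065 to 829, 774 and 855 (log2 fold change -0.50, SE 0.08, limma adjusted p = 0.00676). GINS1 (-0.36), CDC45 (-0.35), CLSPN (-0.33), TICRR (-0.32), CDC7 (-0.32), WDHD1 (-0.31) and GINS2 (-0.29) also fell. TOPBP1, with the highest mean normalized count of this list, did not pass, with -0.25 (limma adjusted p = 0.0871). Without DMSO replicate 1 it had a smaller difference that passed (-0.16, limma adjusted p = 0.00777). The count of 8 became 12 without DMSO replicate 1 (8.46% of all genes), 5 without DMSO replicate 3 (1.02%), and 0, 0 and 1 without YK-4-279 replicate 1, 2 and 3 (0.0287%, 0.0503% and 0.129%).

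Of 11 genes tested that control licensing, 1 fell, beside 2.15% of all genes (median -0.09). The count of 1 became 5 without DMSO replicate 1 (median -0.06, 8.46% of all genes fell) and 5 with the GC and length trend removed (10.7%). It became 2 without DMSO replicate 2 (2.96%) and 2 with DESeq2 (382 of 13930 genes fell). Without YK-4-279 replicate 1, 2 or 3 it was 0 (0.0287%, 0.0503% and 0.129%). CCNF, the cyclin F subunit of the ubiquitin ligase that targets CDC6 for destruction, went from 1918 ± 61.8 to 1531 ± 48.3 (log2 fold change -0.32, limma adjusted p = 0.0129). SKP2, part of a ubiquitin ligase for CDT1 and highest in mean normalized count, had -0.18 (limma adjusted p = 0.121). DDB1, CUL4A and CUL4B, of the ligase that removes CDT1 during S phase, lay at -0.05 to -0.04 with overlapping groups, whereas its substrate receptor DTL had no overlap, with -0.28 (limma adjusted p = 0.0709). DTL passed without DMSO replicate 1 (-0.18, limma adjusted p = 0.00421), without DMSO replicate 2 (0.047), with DESeq2 (0.0371) and with the GC and length trend removed (0.00305).

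Of 23 genes of the replicative polymerases, clamp and clamp loader, 7 fell and 0 rose, beside 2.15% of all genes that fell (median -0.22). PCNA, the sliding clamp and highest of them in mean normalized count, went from 5440 ± 327 to 4216 ± 118 (log2 fold change -0.37, limma adjusted p = 0.00741). POLD3 (-0.39), POLA1 (-0.38), RFC3 (-0.30), RFC2 (-0.29), LIG1 (-0.28) and POLE (-0.25) also fell. POLD4, a small subunit of polymerase delta with low counts, had the largest difference of the list and in the other direction, from 50.9 ± 7.18 to 72.0 ± 9.30 with no overlap between groups (log2 fold change 0.50, limma adjusted p = 0.168). The count of 7 became 12 without DMSO replicate 1 (8.46% of all genes fell) and 3 without DMSO replicate 3 (1.02%). It became 0 without YK-4-279 replicate 1, 2 or 3 (0.0287%, 0.0503% and 0.129%). Of the 3 E2F activators, 1 fell, E2F2 (-0.31, limma adjusted p = 0.0167), beside 2.15% of all genes. This count became 2 without DMSO replicate 1 (8.46% of all genes) and with the GC and length trend removed (10.7%). It was 0 without DMSO replicate 3 (1.02%) and without YK-4-279 replicate 1, 2 or 3 (0.0287%, 0.0503% and 0.129%). E2F3 had -0.12 (limma adjusted p = 0.373). E2F1 had -0.22 (limma adjusted p = 0.131), with DMSO replicate 1 at 4040, inside the treated range of 3825 to 4116, and the other controls at 4943 and 4895.

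**Figure D5:**
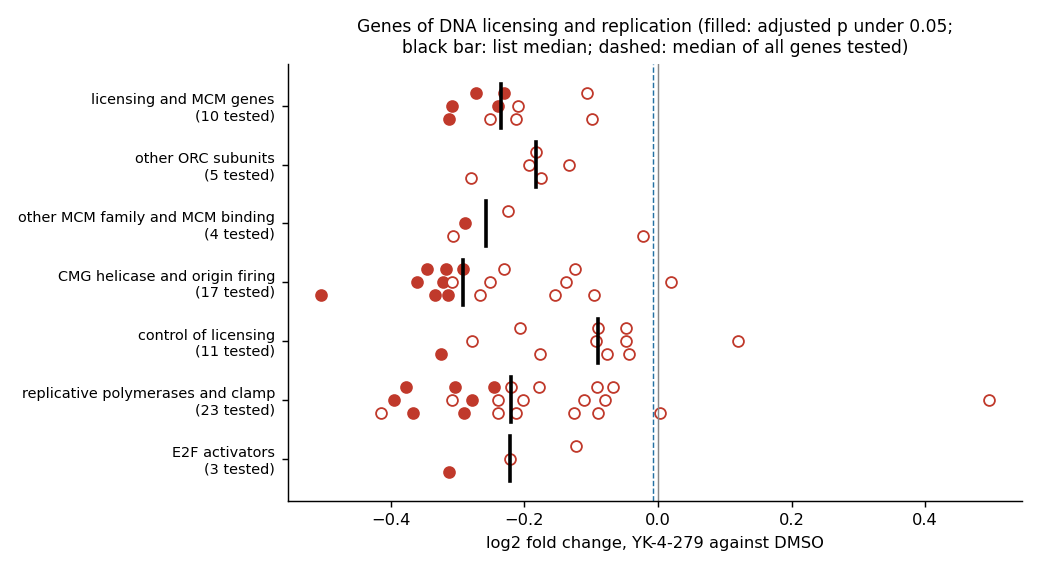
Log2 fold change (x axis, YK-4-279 relative to DMSO) of every tested gene of each list, with 1 point per gene, filled where it passed the test, a black bar at each list's median and a dashed line at the median of all genes tested. List medians run from -0.29 (CMG helicase and origin firing) to -0.09 (control of licensing), beside -0.23 for the licensing genes, an order that depends on the setting: with the GC and length trend removed the CMG median was -0.23 and that of the licensing genes -0.28.

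The genes outside these lists with the most similar profile over the 6 libraries were sought by the root mean square difference from the mean centred log2 profile of the 10 licensing genes, among 10622 genes with a mean of at least 100. They were NSD2, a histone methyltransferase gene (difference 0.0129), CHMP3, RFLNB, ADAMTS12 and CIT (0.0190). The differences of the licensing genes themselves from that profile ran from 0.0183 (MCM3) to 0.0879 (MCM2). Since the 5 genes were picked for a profile that is lower with YK-4-279, their own values are a description with no test. NSD2 had a mean of 8757 ± 88.5 with DMSO and 7415 ± 116 with YK-4-279 (SD, n = 3), and the other 4 had log2 fold changes of -0.23 to -0.19.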

How the data were processed

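PolyA RNA of 6 Rh30 libraries (3 YK-4-279, 3 DMSO) was sequenced. The authors trimmed reads with BBDuk, aligned and counted them per gene with STAR 2.7.9a on hg38 and normalized them with DESeq2 1.44.0. Each deposited value is a normalized signal, the gene's read count over the size factor of its library. The gene annotation used is not given in the sources used here. Dividing by the value of 1 read gave whole numbers for 100% of values (tolerance 1e-06). Of 35269 rows, 1 row without a gene name (at most 6 reads in a library) was left out.

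The two-sided test was limma 3.58.1 (R 4.3.3; linear fit and eBayes with a trend on the mean) on log2(normalized count + 1) for 13930 genes with a mean of at least 10, with Benjamini-Hochberg adjustment over all of them and a threshold of 0.05. This scale understates changes of low genes. Groups follow the labels. Levels per length, GC content and positions used GENCODE 44 canonical transcripts, matched by symbol (98.4% of tested genes), and promoters came from RefSeq (GRCh38.p14). Counting CVs cover counting error only.

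The 10 genes and all lists were chosen with earlier results of these data known. Named were the 10 genes, GMNN, E2F1, divergent or overlapping neighbours, the 5 most similar profiles and, per list, the member with the highest mean and up to 6 with the largest change among those that passed with a mean of at least 100. The other list members named (ORC2 to ORC5, MCM9, MCM3AP, GINS2, WDHD1, POLE, POLD4, E2F3, DTL, DDB1, CUL4A and CUL4B) were chosen after their values were seen. Alternatives were pseudocounts of 0.5 and 10, no filter and a mean of at least 100, quantile and TMM scaling, a replicate block, no trend in eBayes, each library left out, edgeR 4.0.16 and DESeq2 1.42.0 on the whole reads, and a GC and length trend removed per library (mgcv 1.9.3).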

Additional observations from a re-analysis of the deposited data

How the results depend on the processing

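The 10 licensing genes kept a log2 fold change below 0 in all 170 values under 17 alternatives. The call stayed in 127, was lost in 33 and was gained in 10. The 5 calls were made with other pseudocounts and filters, TMM, edgeR and DESeq2. Licensing genes called were 2 with quantile scaling (MCM10 and CDC6), 0 with eBayes without trend, 10 with the GC and length trend removed, and 0 to 10 with each library left out. Genes called over all those tested, 475 in the analysis reported, were 277, 33 and 1967 under the first 3 of these and 19 to 1823 with each library left out. Higher genes made up 37.1% of calls, but 47.7% with quantile scaling, 90.9% with eBayes without trend, 25.2% with the GC and length trend removed and 78.9%, 69.6% and 60.9% without YK-4-279 replicate 1, 2 and 3. The median of the licensing genes moved from -0.23 to -0.219 with TMM, -0.217 with edgeR, -0.17 with quantile scaling and -0.275 with the GC and length trend removed, and lay between -0.247 and -0.221 with each library left out. The CMG list's 8 calls were 13 with the GC and length trend removed, 5 with quantile scaling and 0 with eBayes without trend, and the polymerase list's 7 were 15, 3 and 0. WDHD1 lost its call in 9 of the 17 alternatives and POLE in 11, both with TMM and edgeR among them, POLE also with no filter. MCM8 lost its call in 8 and E2F2 in 7, both with quantile scaling, eBayes without trend and the replicate block. MCM8 lost it also without DMSO replicate 2 (limma adjusted p = 0.0514). CCNF lost its call in 5, with eBayes without trend and the replicate block among them. The median of the control list was -0.048 with quantile scaling. Medians of the E2F activators were -0.316 without DMSO replicate 1 and -0.314 after the GC and length correction, against -0.22 in the analysis reported. The cause of these shifts was not tested.

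The labels share replicate numbers between groups but do not say whether these pair the samples. Same-numbered libraries did not deviate together (correlations -0.0985, -0.0269 and -0.0267). This cannot decide on pairing, since a shift of a single library, such as DMSO replicate 1, could mask what a pair shared. With a replicate block, 180 genes and 0 licensing genes were called (8 of 10 were lower at an unadjusted p-value under 0.05, beside 8.86% of all genes). Of the 180, 101 fell, 3 of them in the CMG list and 3 in the polymerase list. MCM2 and MCM5, which did not pass in the analysis reported, passed without DMSO replicate 1 and with the GC and length trend removed.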
